A study of Mus musculus with 4 samples.

Results

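The collagen genes, whose symbols name a chain by its type and number, were followed through RNA from the hippocampus of C57BL/6 mice aged 6 months. The rule took every symbol made of Col, a type number, the letter a and a chain number, and it found 43 genes among the 18492 listed in any library. All 43 were listed in each of the 4 libraries. One library each came from Ogg1-/- mice (Ogg1 KO), Mutyh-/- mice (Mutyh KO), mice without either gene (DKO) and wild-type mice (WT). Ogg1 encodes the glycosylase that removes 8-oxoguanine from DNA, and Mutyh the glycosylase that removes adenine paired with it. The number and sex of the animals behind a library are not stated. Having 1 library per genotype, the differences below have no replicate check and compare libraries rather than genotypes. Differences are given as ratios of a gene's share of its library's reads, with a 95% interval (exact, conditional) for counting error only, and levels as RPKM, reads per kilobase of gene scaled to library size.

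Collagens are trimeric proteins of the extracellular matrix whose chains wind into a triple helix of repeated glycine triplets. Fibrillar collagens form the tensile fibrils of connective tissue, type IV collagens form the sheet of basement membranes, type VIII and X collagens form hexagonal networks, and the remaining types decorate fibrils, form beaded filaments, anchor epithelia or span the cell membrane. In the brain, collagen lies mainly in the basement membranes of blood vessels, in the meninges and in the stroma of the choroid plexus, with little between neurons. A few types, among them XIX and XXV, are known from neurons.

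The library totals in the file headers were 17.02 M reads (Ogg1 KO), 17.15 M reads (Mutyh KO), 18.2 M reads (DKO) and 18.12 M reads (WT). Ogg1 had 130 reads in the library labelled Ogg1 KO, 81 in Mutyh KO, 103 in the library labelled DKO and 94 in WT, so its read number goes against both labels that name its loss. Its covered length was lower in those libraries, at 47.2% in Ogg1 KO and 46.4% in DKO, against 81.5% in Mutyh KO and 86.7% in WT. Mutyh had 15 reads in Mutyh KO and 20 in DKO, against 35 in Ogg1 KO and 39 in WT. Which parts these alleles delete is not stated, and every direction below for Ogg1 KO and DKO is that of a library with that label. The Mutyh KO library also held 10307 Xist reads, against 23 in Ogg1 KO, 29 in DKO and 14 in WT, and fewer reads of the Y-linked Ddx3y (289, against 724 in Ogg1 KO, 884 in DKO and 816 in WT). Each comparison with it is thus also one of sex-linked content. Hippocampal neuron markers (Prox1, Wfs1, Neurod6, Camk2a, Slc17a7 and Bsn) were present in every library, with summed levels of 1787, 1717 and 1761 RPKM in Ogg1 KO, Mutyh KO and DKO and 1908 RPKM in WT.

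Among the largest differences from WT, beside that of the low gene Col17a1, were those of Col8a1 and Col8a2, the chains of the hexagonal network collagen VIII, and of Col4a3 and Col4a4, head-to-head neighbours that encode chains of a basement membrane network. The sequences before their start sites are shown because the members of each pair were high in the same libraries, and that of the fibrillar gene Col3a1 is shown beside them because its highest level was in another library. They are RefSeq promoter windows in build GRCm38.p6, cut to the 250 bases before the start and printed 5′ to 3′ on the gene's strand. Capitals mark a GC box (GGGCGG or its reverse complement CCGCCC) or a TATA box (TATAAA or TTTATA). Adjoining GC boxes run together. The stretch between Col4a4 and Col4a3 holds the 71 bases from the Col4a4 start to the first Col4a3 exon annotated in GENCODE, on the Col4a4 strand. Their positions are chr16:57754738-57754987 (Col8a1, minus strand), chr4:126286544-126286793 (Col8a2, plus strand), chr1:82586850-82586920 (Col4a4 to Col4a3, minus strand) and chr1:45311288-45311537 (Col3a1, plus strand).
Col8a1: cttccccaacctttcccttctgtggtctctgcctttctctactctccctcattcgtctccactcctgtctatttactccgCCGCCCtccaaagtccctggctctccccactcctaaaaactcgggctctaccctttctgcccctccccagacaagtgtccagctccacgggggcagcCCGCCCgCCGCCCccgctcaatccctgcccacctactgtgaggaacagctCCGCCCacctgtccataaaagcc
Col8a2: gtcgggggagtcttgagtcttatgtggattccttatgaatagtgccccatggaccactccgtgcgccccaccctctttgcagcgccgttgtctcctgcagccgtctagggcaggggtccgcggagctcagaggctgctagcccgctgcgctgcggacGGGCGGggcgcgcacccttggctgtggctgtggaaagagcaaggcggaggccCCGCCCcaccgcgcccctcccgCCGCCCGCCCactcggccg
Col4a4 to Col4a3: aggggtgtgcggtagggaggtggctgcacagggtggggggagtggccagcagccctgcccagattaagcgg
Col3a1: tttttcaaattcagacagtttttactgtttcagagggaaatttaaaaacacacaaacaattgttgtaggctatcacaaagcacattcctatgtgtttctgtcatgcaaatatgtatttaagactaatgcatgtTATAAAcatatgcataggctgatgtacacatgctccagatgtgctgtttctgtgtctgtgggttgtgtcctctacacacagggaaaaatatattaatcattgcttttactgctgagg

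Both collagen VIII windows held 4 matches to the GC box, which is the usual binding motif of Sp1-family factors. The stretch shared by Col4a4 and Col4a3 held no match to either motif or to the CCAAT box (CCAAT or ATTGG). The Col3a1 window held 1 TATA box and had a GC content of 35.2%, against 60.8% for Col8a1, 70.0% for Col8a2 and a median of 52.4% over all 32851 windows of that length. Promoter windows were on file for 34 of the 43 members, 37 windows in all. Of these, 22 held a GC box (59.5%, against 32.7% of all windows), 13 a CCAAT box (35.1%, against 33.8%) and 5 a TATA box (13.5%, against 12.4%). The starts of Col4a1 and Col4a2, the pair that makes the common basement membrane collagen, lay 21 bases apart on opposite strands, so that their 300-base windows shared 78 bases. Col17a1, with the same order of libraries as Col8a1, held 0 GC box and 2 TATA box matches, with a GC content of 46.0%. Of the pair close to WT, Col4a2 held 2 GC box matches and Col4a1 held 0. A match describes the letters of a window and not the binding of a factor. Whether matches go with levels in the libraries was not tested.

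Collagen transcripts took 0.0778% of reads in Ogg1 KO, 0.0867% in Mutyh KO, 0.0777% in DKO and 0.0656% in WT. Summed over the 43 genes, their level was 144 RPKM in Ogg1 KO, 164 RPKM in Mutyh KO and 142 RPKM in DKO, against 118 RPKM in WT. In each knockout library the sum was above WT. The classes did not share this difference evenly. Network collagens summed to 7.88 RPKM in Ogg1 KO, 14.1 RPKM in Mutyh KO and 5.71 RPKM in DKO, against 1.75 RPKM in WT. Basement membrane collagens (type IV) stood at 36.3, 38.7 and 37.2 RPKM in Ogg1 KO, Mutyh KO and DKO and at 36.0 RPKM in WT. Fibrillar collagens summed to 27.1 RPKM in Ogg1 KO, 31.2 RPKM in Mutyh KO and 31.6 RPKM in DKO, against 23.8 RPKM in WT. The remaining 23 genes summed to 72.7, 80.3 and 67.7 RPKM in Ogg1 KO, Mutyh KO and DKO, against 56.3 RPKM in WT. The network class therefore differed most in proportion, from 3.25-fold (DKO) to 8.01-fold (Mutyh KO), and the basement membrane class least, at 1.01-fold to 1.07-fold. Most of the basement membrane sum came from Col4a1 and Col4a2, with 13.6 and 21.1 RPKM in WT. The low genes Col4a3, Col4a4, Col4a5 and Col4a6 were each above WT in every knockout library.

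**Figure D1:**
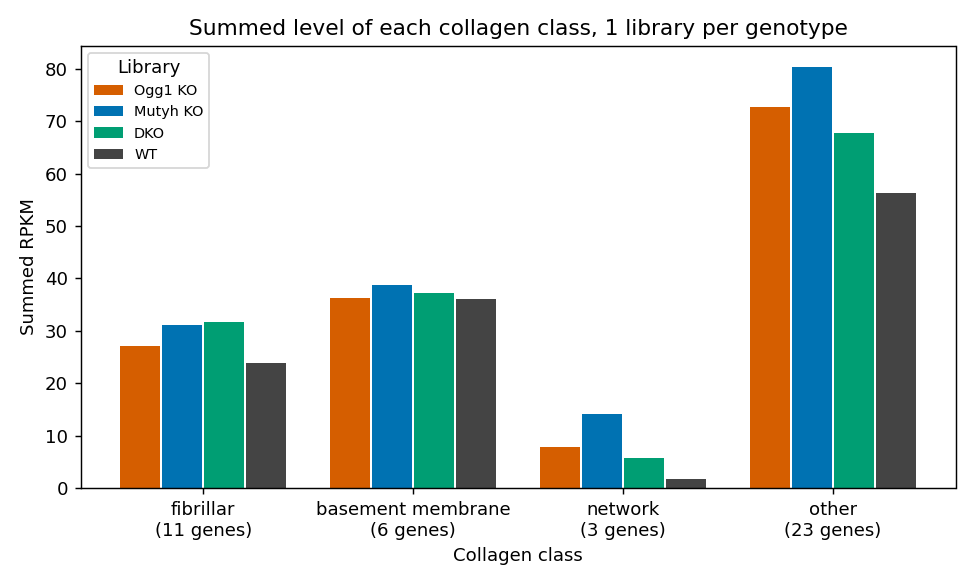
Summed RPKM (vertical axis, from 0) of the 4 collagen classes in the Ogg1 KO, Mutyh KO, DKO and WT libraries, 1 bar per library and no error bars because each genotype has 1 library. The network bars differ most in proportion, from 14.1 RPKM in Mutyh KO to 1.75 RPKM in WT, while the basement membrane bars lie between 36.0 and 38.7 RPKM.

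Summed choroid plexus and meningeal markers were above WT in each knockout library, in orders of libraries that differed by list and by measure. Of all genes with a mean of at least 1 RPKM, 54.6% (Ogg1 KO), 53.0% (Mutyh KO) and 49.3% (DKO) were above WT. The 16 choroid plexus epithelial markers summed to 2967 RPKM in Ogg1 KO, 2922 RPKM in Mutyh KO and 1493 RPKM in DKO, against 267 RPKM in WT, with all 16 above WT in each knockout library and none at 0 in any. Ttr, the transthyretin gene, made up 2270 RPKM in Ogg1 KO, 2170 RPKM in Mutyh KO and 1110 RPKM in DKO of these sums, against 158 RPKM in WT. The median log2 ratio of the 16 to WT was 2.38 (Ogg1 KO), 2.62 (Mutyh KO) and 1.52 (DKO), so by the median Mutyh KO and not Ogg1 KO was highest. The 17 meningeal fibroblast markers summed to 170.2, 227 and 185 RPKM in the same libraries, against 94.7 RPKM in WT, with 14, 17 and 17 of them above WT and none at 0. Igf2 alone had 79.0, 114 and 59.7 RPKM of these sums, against 24.6 RPKM in WT. The median log2 ratio of the 15 meningeal markers compared was 0.37 (Ogg1 KO), 0.53 (Mutyh KO) and 1.01 (DKO), so DKO was highest by the median and Mutyh KO by the sum. Of the 17, Igf2, Slc13a4 and Dcn were highest in Mutyh KO and Foxd1 in Ogg1 KO. All the others were highest in DKO, as was Col3a1. Ependymal markers (6 genes) summed to 30.5, 43.7 and 23.4 RPKM, against 23.8 RPKM in WT. Endothelial markers (12 genes) summed to 129.8, 149 and 138 RPKM, against 134 RPKM in WT, and pericyte and smooth muscle markers (11 genes) to 133, 125 and 147 RPKM, against 107 RPKM in WT. The part of these cells in the collagen differences was not tested, and in bulk RNA fewer cells of a type and less RNA per cell cannot be told apart. Dcn, Lum and Ogn belong both to the meningeal list and to the proteoglycans. Astrocyte and oligodendrocyte markers stayed within 1.04-fold to 1.17-fold of WT.

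**Figure D2:**
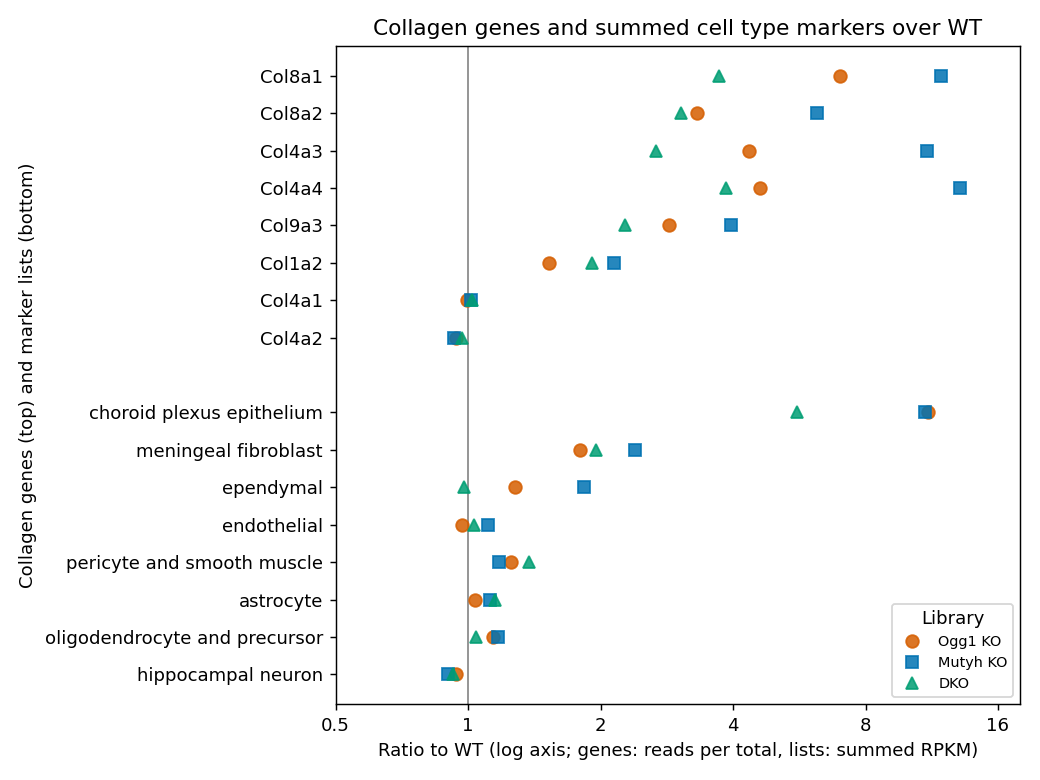
Ratio to WT (log axis, line at 1) in Ogg1 KO (circles), Mutyh KO (squares) and DKO (triangles) of 8 collagen genes, as reads per library total, and of summed marker lists, as summed RPKM. The summed choroid plexus markers, most of whose RPKM is Ttr, lie at 5.58 (DKO) to 11.1 (Ogg1 KO), while endothelial markers and Col4a1 lie near 1.

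Of the 43 members, 27 had a mean of at least 1 RPKM over the libraries and entered the comparison on log2(RPKM + 1), a scale that understates differences of low genes. Among these 27, Col3a1, Col4a5 and Col8a1 were under 1 RPKM in WT, so their entry rested on the knockout libraries. Col8a1, Col8a2 and Col9a3 were at least 2-fold above WT on this scale in each knockout library, 3 of 27, while the share of all 13186 genes compared was 0.554% (Ogg1 KO), 0.743% (Mutyh KO) and 0.546% (DKO). None of the 27 was at least 2-fold below WT, a size reached by 0.212% (Ogg1 KO), 0.091% (Mutyh KO) and 0.0455% (DKO) of all genes. The median log2 ratio of the 27 was 0.25 (Ogg1 KO), 0.23 (Mutyh KO) and 0.23 (DKO), beside 0.02, 0.01 and -0.00 over all genes compared. At 1.5-fold, 4 members were higher in Ogg1 KO (1.57% of all genes), 7 in Mutyh KO (2.31%) and 5 in DKO (1.62%), and none was lower (0.66%, 0.174% and 0.394% of all genes in the same order). Col18a1 joined the 3 in each library, Col1a2 in Mutyh KO and DKO, and Col1a1 and Col4a5 in Mutyh KO. The 3 comparisons share the WT library.

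Low members were compared by reads. Of the 43, 39 had at least 20 reads in 1 of the libraries of each pair. With a ratio of at least 2-fold and an interval excluding 1, 8 members were higher in Ogg1 KO (1.75% of all genes with that many reads), 11 in Mutyh KO (2.41%) and 9 in DKO (1.78%). No member was lower by this rule (0.555%, 0.133% and 0.349% of all genes). Col4a3, Col4a4, Col8a1, Col8a2, Col9a3, Col17a1 and Col24a1 were among the higher members in each knockout library. Col4a4 (15 reads), Col17a1 (7 reads) and Col24a1 (13 reads) were under 20 reads in WT. Their entry thus rested on the knockout libraries, and they could only come out higher.

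**Figure D3:**
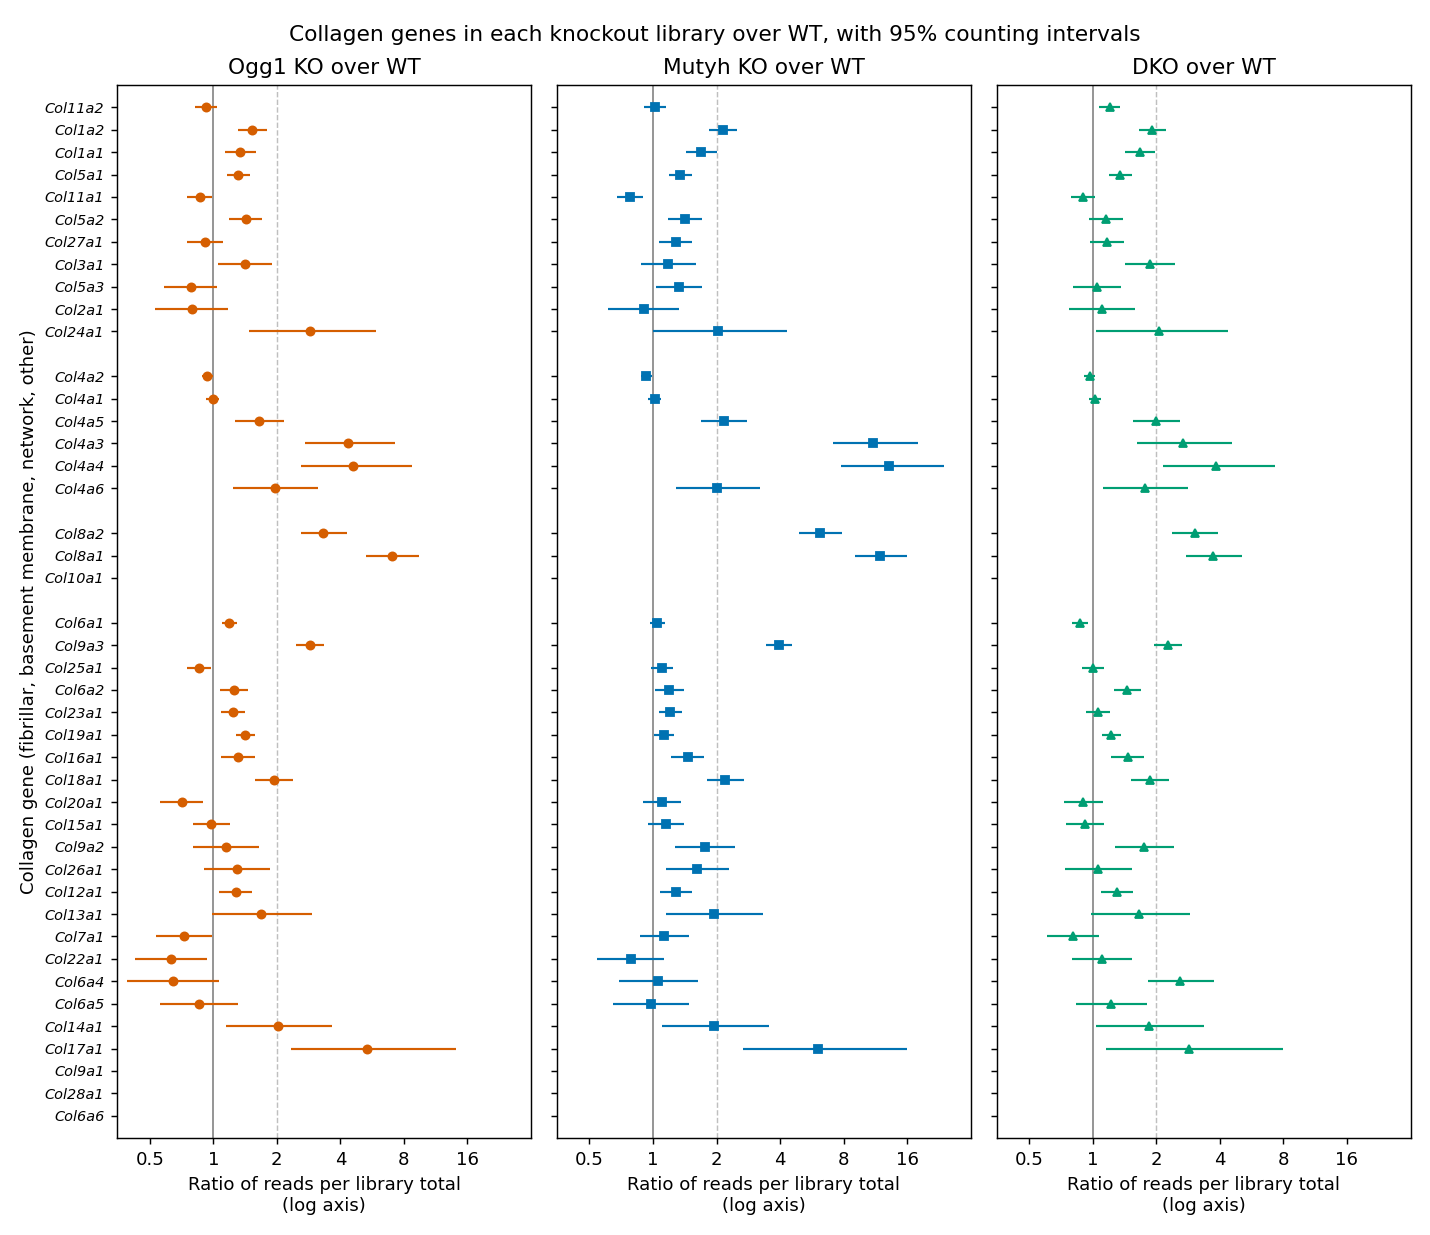
Ratio of reads per library total (log axis) of each collagen gene in Ogg1 KO (left), Mutyh KO (middle) and DKO (right) over WT, with the exact 95% interval of counting error as a line, the solid line at 1 and the dashed line at 2. Genes run down the page by class and mean level, and those with under 20 reads in both libraries (Col6a6, Col9a1, Col10a1 and Col28a1) have no point. The type VIII genes, Col4a3, Col4a4 and Col17a1 lie farthest right, at up to 13.1-fold in Mutyh KO, and Col4a1 and Col4a2 lie near the line at 1.

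Network collagens. Collagen VIII is best known from the corneal Descemet membrane and from vessel walls. Col8a1 (gene ID 12837) had 368 reads in Ogg1 KO, 629 reads in Mutyh KO and 209 reads in DKO, against 56 in WT, or 4.23, 7.18 and 2.25 RPKM against 0.605 RPKM. It was 6.99-fold above WT in Ogg1 KO (5.27 to 9.44), 11.9-fold in Mutyh KO (9.02 to 15.9) and 3.71-fold in DKO (2.75 to 5.08). All 3 knockout libraries lay above WT, with intervals that do not overlap between Ogg1 KO and DKO. Its partner chain Col8a2 (gene ID 329941) had 268 reads in Ogg1 KO, 505 reads in Mutyh KO and 263 reads in DKO, against 86 in WT, or 3.63, 6.80 and 3.34 RPKM against 1.10 RPKM. The ratios to WT were 3.32 (2.59 to 4.28), 6.21 (4.93 to 7.89) and 3.04 (2.38 to 3.93). Mutyh KO was again the highest library, whereas Ogg1 KO and DKO could hardly be told apart by their intervals. The RPKM of Col8a2 over that of Col8a1 was 0.859 (Ogg1 KO), 0.947 (Mutyh KO) and 1.48 (DKO), against 1.81 in WT. Col10a1, the collagen of hypertrophic cartilage, had 1, 4 and 7 reads in Ogg1 KO, Mutyh KO and DKO and 3 reads in WT.

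Basement membrane collagens. Col4a1 and Col4a2 make the ubiquitous heterotrimer of vessel basement membranes and were, with Col6a1, the most abundant members by mean RPKM over the libraries, though Col9a3 was above Col4a1 and Col6a1 in Mutyh KO. Col4a1 (gene ID 12826) had 1528, 1571 and 1678 reads in Ogg1 KO, Mutyh KO and DKO and 1633 in WT, or 13.5, 13.8 and 13.9 RPKM against 13.6 RPKM. Col4a2 (gene ID 12827) had 2169, 2165 and 2390 reads in the same 3 libraries and 2462 in WT, or 19.8, 19.7 and 20.4 RPKM against 21.1 RPKM. The libraries lay close together for both chains, with ratios to WT of 0.996 (0.928 to 1.07), 1.02 (0.948 to 1.09) and 1.02 (0.955 to 1.10) for Col4a1. For Col4a2 they were 0.938 (0.885 to 0.994) for Ogg1 KO, 0.929 (0.877 to 0.985) for Mutyh KO and 0.966 (0.913 to 1.02) for DKO. Because the pair overlaps at its starts on opposite strands and no source states that the libraries kept strand, reads at that end may belong to either gene. Col4a2 over Col4a1 was 1.47, 1.42 and 1.47 on RPKM in Ogg1 KO, Mutyh KO and DKO and 1.56 in WT.

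The other type IV pairs stood apart from this one. Col4a3, Col4a4 and Col4a5 encode the network known from the kidney glomerulus, lung and inner ear, and its loss causes Alport syndrome. Col4a3 (gene ID 12828) had 90 reads in Ogg1 KO, 230 reads in Mutyh KO and 59 reads in DKO, against 22 in WT, which is 4.35-fold (2.71 to 7.29), 11.1-fold (7.12 to 17.98) and 2.67-fold (1.61 to 4.58). Col4a4 (gene ID 12829) had 65, 186 and 58 reads in the knockout libraries and 15 in WT, for ratios of 4.61 (2.60 to 8.71), 13.1 (7.74 to 23.9) and 3.85 (2.15 to 7.31). Both were low in level, at 0.377 to 1.56 RPKM (Col4a3) and 0.408 to 1.39 RPKM (Col4a4) in the knockout libraries, and were under the mean of 1 RPKM. Mutyh KO was highest and WT lowest for each. Col4a4 over Col4a3 was 0.796 (Ogg1 KO), 0.892 (Mutyh KO) and 1.08 (DKO), against 0.752 in WT, close to even in every library. Here too the genes start beside each other on opposite strands.

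The X-linked pair Col4a5 and Col4a6 differed less. Col4a5 (gene ID 12830) had 147, 195 and 191 reads in Ogg1 KO, Mutyh KO and DKO, against 95 in WT, or 1.33, 1.75 and 1.61 RPKM against 0.806 RPKM. It was 1.65-fold (1.26 to 2.15), 2.17-fold (1.69 to 2.80) and 2.001-fold (1.56 to 2.59) above WT. Col4a6, with 57, 59 and 55 reads against 31, was at 1.957-fold (1.24 to 3.14), 2.01-fold (1.28 to 3.21) and 1.77-fold (1.12 to 2.84). For neither gene did the Mutyh KO library, the one with Xist reads, stand apart from the other knockout libraries by its interval. Their intervals overlapped with that of Col4a3 in DKO, and that of Col4a6 did so in Ogg1 KO too.

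Fibrillar collagens. Type I collagen, the main collagen of fibrous tissue and of the meninges, is made of Col1a1 and Col1a2. Col1a1 (gene ID 12842) had 303 reads in Ogg1 KO, 385 reads in Mutyh KO and 402 reads in DKO, against 240 in WT, or 3.78, 4.77 and 4.69 RPKM against 2.81 RPKM. Col1a2 (gene ID 12843) had 381, 538 and 510 reads, against 265 in WT, or 4.35, 6.10 and 5.45 RPKM against 2.84 RPKM. Both chains were lowest in WT, intermediate in Ogg1 KO and higher in Mutyh KO and DKO. For Col1a1 the ratios to WT were 1.34 (1.13 to 1.60) for Ogg1 KO, 1.70 (1.44 to 2.0) for Mutyh KO and 1.67 (1.42 to 1.97) for DKO. For Col1a2 they were 1.53 (1.30 to 1.80), 2.15 (1.85 to 2.495) and 1.92 (1.65 to 2.23). Col1a2 over Col1a1 was 1.15, 1.28 and 1.16 on RPKM in the knockout libraries and 1.01 in WT.

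Col3a1 (gene ID 12825), the fibrillar collagen of vessels and soft tissue, had 114 reads in Ogg1 KO, 96 reads in Mutyh KO and 161 reads in DKO, against 86 in WT, or 1.2, 1.01 and 1.59 RPKM against 0.853 RPKM. Its ratio to WT was 1.41 (1.06 to 1.89) for Ogg1 KO, 1.18 (0.873 to 1.60) for Mutyh KO and 1.86 (1.43 to 2.45) for DKO, so that DKO and not Mutyh KO was highest. Type V collagen, which sets fibril width, was measured through its 3 chains. Col5a1 had 3.93, 4.02 and 4.04 RPKM in Ogg1 KO, Mutyh KO and DKO, against 2.99 RPKM in WT. Col5a2, which lies next to Col3a1 in the genome, had 2.56, 2.54 and 2.07 RPKM, against 1.79 RPKM in WT. Col5a3 had 0.830, 1.41 and 1.11 RPKM, against 1.06 RPKM in WT. The first of these chains was higher in all 3 knockout libraries by 1.31-fold to 1.35-fold, with intervals above 1, whereas Col5a3 lay on either side of WT.

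Type XI collagen, known from cartilage and the inner ear, gave the fibrillar transcript of highest mean RPKM, Col11a2, which Col1a2 exceeded in Mutyh KO, with 5.04, 5.60 and 6.55 RPKM in Ogg1 KO, Mutyh KO and DKO and 5.46 RPKM in WT. Col11a1 had 3.15, 2.84 and 3.29 RPKM, against 3.65 RPKM in WT, and was the fibrillar member lowest against WT in Mutyh KO, at 0.778-fold (0.676 to 0.894). Col27a1, a fibrillar collagen of cartilage, had 1.47, 2.06 and 1.89 RPKM, against 1.61 RPKM in WT. These genes did not share the order of type I collagen. Col2a1, the cartilage fibril collagen, and Col24a1 were under 1 RPKM in every library. Col24a1 had 35, 25 and 27 reads in the knockout libraries, against 13 in WT, with ratios of 2.87 (1.48 to 5.90), 2.03 (1.001 to 4.33) and 2.07 (1.03 to 4.36).

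**Figure D4:**
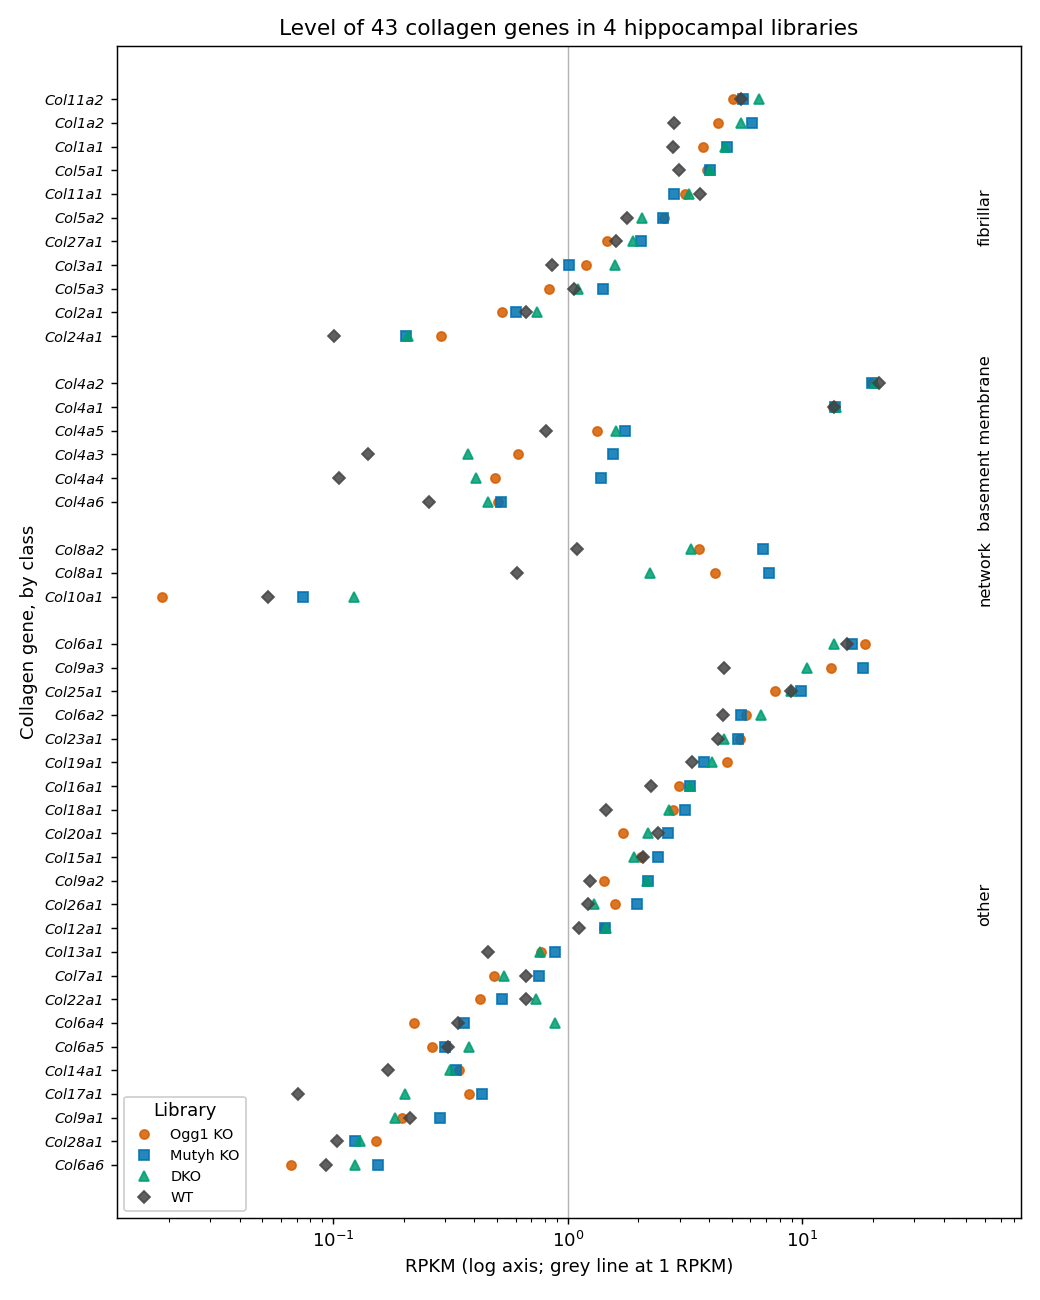
RPKM (log axis) of all 43 collagen genes in Ogg1 KO (circles), Mutyh KO (squares), DKO (triangles) and WT (diamonds), grouped by class and ordered by mean level within it, with a line at 1 RPKM. WT is the leftmost symbol by the widest gaps for Col4a3, Col4a4, Col8a1, Col8a2, Col9a3 and Col17a1, and the 4 symbols coincide for Col4a1.

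Fibril-associated collagens sit on the surface of fibrils. Col9a3 (gene ID 12841), a chain of type IX collagen, had 641 reads in Ogg1 KO, 890 reads in Mutyh KO and 543 reads in DKO, against 238 in WT, or 13.2, 18.2 and 10.5 RPKM against 4.62 RPKM. It was 2.87-fold (2.47 to 3.34), 3.95-fold (3.42 to 4.58) and 2.27-fold (1.95 to 2.66) above WT, in the same order of libraries as Col8a1. Its partner Col9a2 had 1.43, 2.19 and 2.18 RPKM, against 1.25 RPKM in WT, and Col9a1 had 13 to 19 reads in the knockout libraries and 15 in WT. Col9a3 over Col9a2 was 9.23 (Ogg1 KO), 8.34 (Mutyh KO) and 4.81 (DKO), against 3.70 in WT, so the chains of this trimer were far from even on RPKM. Col16a1 had 2.97, 3.32 and 3.32 RPKM, against 2.27 RPKM in WT. Col12a1 had 1.43, 1.44 and 1.46 RPKM, against 1.12 RPKM in WT. Both were higher in each knockout library, by 1.28-fold to 1.46-fold, with intervals above 1.

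Col19a1, which interneurons are known to express, had 4.77 RPKM in Ogg1 KO, 3.82 RPKM in Mutyh KO and 4.12 RPKM in DKO, against 3.37 RPKM in WT, and was highest in Ogg1 KO. Col20a1 had 1.72, 2.67 and 2.19 RPKM, against 2.42 RPKM in WT, and was lowest in Ogg1 KO. Col14a1 and Col22a1 were under 1 RPKM throughout. Col14a1 had 38, 37 and 37 reads in the knockout libraries and 20 in WT, with a ratio of 2.02 (1.15 to 3.67) in Ogg1 KO.

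Beaded-filament collagen VI surrounds cells at the edge of basement membranes. Col6a1 (gene ID 12833) had 1258 reads in Ogg1 KO, 1114 reads in Mutyh KO and 985 reads in DKO, against 1122 in WT, or 18.5, 16.3 and 13.6 RPKM against 15.5 RPKM. Its ratio to WT was 1.19 (1.10 to 1.29) for Ogg1 KO, 1.05 (0.965 to 1.14) for Mutyh KO and 0.874 (0.801 to 0.953) for DKO, so its interval lay above 1 in Ogg1 KO and below 1 in DKO. Col6a2, its neighbour and partner chain, ran the other way in DKO, with 5.75, 5.47 and 6.69 RPKM in Ogg1 KO, Mutyh KO and DKO, against 4.59 RPKM in WT, and a ratio of 1.46 (1.26 to 1.69) in DKO. Col6a2 over Col6a1 was 0.310, 0.336 and 0.493 in these libraries and 0.296 in WT. Col6a4 had 28 reads in Ogg1 KO, 46 reads in Mutyh KO and 120 reads in DKO, against 46 in WT. By the rule on reads it was higher in DKO but in neither of the others, at 2.60 (1.83 to 3.73) in DKO, 0.648 (0.390 to 1.06) in Ogg1 KO and 1.06 (0.687 to 1.63) in Mutyh KO. Col6a4, Col6a5 and Col6a6 are close relatives, and the files give unique reads, so reads shared among them are not in these numbers. Col6a5 and Col6a6 were under 0.4 RPKM in each library.

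Multiplexins lie in basement membrane zones, and Col18a1 is the source of endostatin. Col18a1 (gene ID 12822) had 270, 307 and 277 reads in Ogg1 KO, Mutyh KO and DKO, against 148 in WT, or 2.81, 3.17 and 2.70 RPKM against 1.45 RPKM. It was 1.94-fold (1.58 to 2.39), 2.19-fold (1.80 to 2.69) and 1.86-fold (1.52 to 2.29) above WT. Col15a1 had 2.05, 2.42 and 1.92 RPKM, against 2.09 RPKM in WT, with each interval of its ratio to WT including 1. The knockout libraries thus lay above WT for the first multiplexin and around it for the second.

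Transmembrane collagens span the cell membrane and can be shed from it. Col25a1, which neurons make and whose shed form associates with amyloid plaques, had 7.67, 9.86 and 8.95 RPKM in Ogg1 KO, Mutyh KO and DKO, against 8.92 RPKM in WT. Col23a1 had 5.44, 5.30 and 4.62 RPKM, against 4.38 RPKM in WT. Neither was 1.5-fold from WT in any library. Col17a1, the hemidesmosome collagen of epithelia, had 35 reads in Ogg1 KO, 40 reads in Mutyh KO and 20 reads in DKO, against 7 in WT, with ratios of 5.32 (2.33 to 14.2), 6.04 (2.68 to 15.97) and 2.84 (1.16 to 7.96). Its order of libraries was that of Col8a1, at under 0.5 RPKM. Col13a1, of neuromuscular junctions, had 38, 44 and 40 reads, against 24 in WT. Col26a1 had 1.59, 1.98 and 1.30 RPKM, against 1.22 RPKM in WT. Col7a1, the anchoring fibril of skin, and Col28a1 were under 1 RPKM throughout. The 16 members under a mean of 1 RPKM had 1 to 230 reads in a library and at most 1.56 RPKM.

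The share of a gene's length covered by reads, which the authors deposited as coverage, followed read number. Col8a1 was covered over 87.4% (Ogg1 KO), 96.5% (Mutyh KO) and 81.5% (DKO), against 37.2% in WT. Genes within 20% of its length and reads in the same library had medians of 86.8%, 93.4% and 76.7% in the knockout libraries and 36.2% in WT, so the added reads were spread over the gene as in other genes of that size. Col4a4 reached 31.4%, 64.2% and 28.6%, against 7.90% in WT, where like genes had 31.9%, 57.9% and 27.3%, against 8.69% in WT. Col9a3 was covered over 92.3%, 93.6% and 93.6%, against 89.3% in WT. Of the 43 members, 16 (Ogg1 KO), 18 (Mutyh KO) and 18 (DKO) were covered over at least 80%, against 13 in WT.

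**Figure D5:**
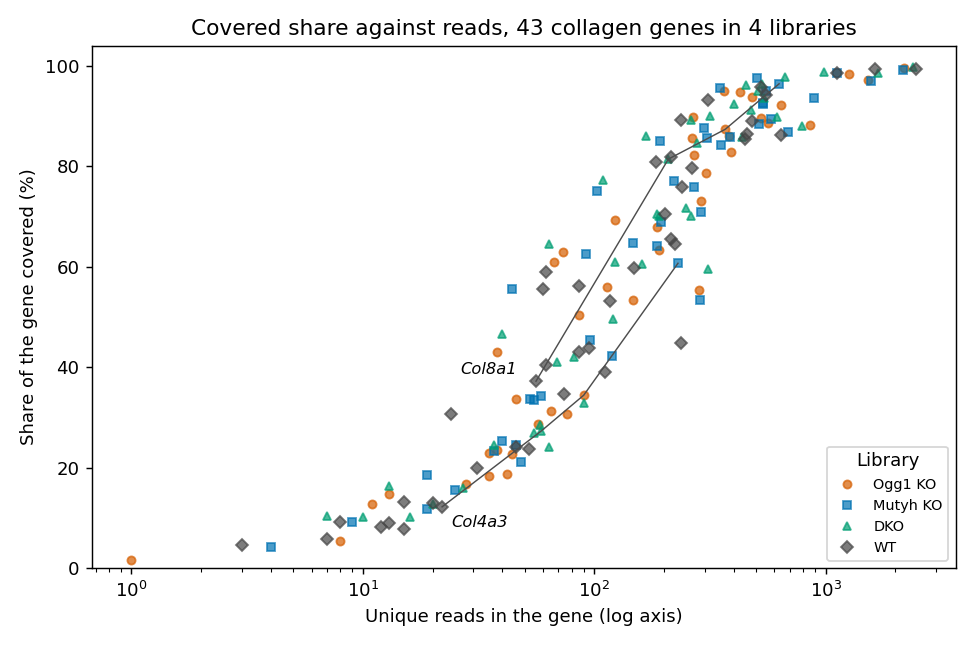
Share of each collagen gene's length covered by reads (vertical axis, in %) against its unique reads (log axis), 43 genes in each of the Ogg1 KO, Mutyh KO, DKO and WT libraries, with lines joining the 4 libraries of Col8a1 and of Col4a3. Both genes move along the band formed by the other members, Col8a1 reaching 96.5% at 629 reads in Mutyh KO, against 37.2% at 56 reads in WT.

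Set against Mutyh KO, the DKO library held less of the members that were far above WT, while against Ogg1 KO the intervals of Col8a2 and Col4a4 included 1. Of the 27 members compared, Col8a1 was at least 2-fold lower in DKO than in Mutyh KO, as were 0.212% of all genes compared, and none was at least 2-fold lower than in Ogg1 KO (0.0834%) or higher than in Ogg1 KO (0.303%) or Mutyh KO (0.091%). At 1.5-fold, Col8a1 was lower in DKO than in Ogg1 KO (0.766% of all genes) and none was higher (0.827%), while Col8a1, Col8a2 and Col9a3 were lower than in Mutyh KO (1.15%) and none was higher (0.197%). In reads, Col8a1 was at 0.313-fold of Mutyh KO (0.266 to 0.367) and 0.531-fold of Ogg1 KO (0.446 to 0.631). Col8a2 was at 0.491-fold of Mutyh KO (0.421 to 0.571) and 0.918-fold of Ogg1 KO (0.771 to 1.09). Col4a3 was at 0.242-fold (0.178 to 0.323) and 0.613-fold (0.434 to 0.861), and Col4a4 at 0.294-fold (0.215 to 0.396) and 0.835-fold (0.575 to 1.21). The distance from Mutyh KO was thus the greater one for each of these 4 genes. By the rule on reads, 5 members were lower in DKO than in Mutyh KO (1.03% of all genes), the fifth being Col17a1, and none was lower than in Ogg1 KO (0.6%). Only Col6a4 was higher by it in DKO, at 4.01-fold of Ogg1 KO (2.64 to 6.28; 0.956% of all genes) and 2.46-fold of Mutyh KO (1.74 to 3.53; 0.292%). Col1a1 and Col1a2 were at 0.984-fold (0.853 to 1.13) and 0.893-fold (0.790 to 1.01) of Mutyh KO and at 1.24-fold (1.07 to 1.45) and 1.25-fold (1.09 to 1.43) of Ogg1 KO. The median log2 ratio of the 27 was 0.04 against Ogg1 KO and -0.09 against Mutyh KO, beside -0.02 and -0.01 over all genes.

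Among genes compared on log2(RPKM + 1), most enzymes and partners of collagen were within 2-fold of WT. Of these genes, Pcolce alone was past 2-fold on that scale in every knockout library. The low biosynthesis gene Loxl4, which was not compared, had 25, 25 and 11 reads in Ogg1 KO, Mutyh KO and DKO, against 5 in WT. Of 29 biosynthesis genes listed, 24 were compared, with medians of 0.10 (Ogg1 KO), 0.07 (Mutyh KO) and 0.03 (DKO) on the log2 scale. Pcolce, the enhancer of procollagen C-proteinase, had 12.6, 16.4 and 10.3 RPKM in Ogg1 KO, Mutyh KO and DKO, against 3.98 RPKM in WT, and was 3.15-fold (2.54 to 3.95), 4.12-fold (3.34 to 5.13) and 2.59-fold (2.08 to 3.26) above WT. On log2(RPKM + 1) it was past 2-fold in each library, and its relative Pcolce2 in Mutyh KO, at 2.38-fold in reads (1.85 to 3.08). Loxl2 was also higher in reads in Mutyh KO, with 197 against 96 in WT. None of the 24 was at least 2-fold lower on log2(RPKM + 1). Over all genes compared, 0.554% (Ogg1 KO), 0.743% (Mutyh KO) and 0.546% (DKO) were at least 2-fold higher. The shares at least 2-fold lower were 0.212%, 0.091% and 0.0455% in the same order. Small leucine-rich proteoglycans, which bind fibrils, were compared for 8 of 12 genes and had medians of 0.34, 0.57 and 0.55. In this list Fmod (15.3 RPKM in DKO, against 5.93 RPKM in WT, 2.58-fold, 2.26 to 2.96) and Ogn (13.2 against 6.02 RPKM, 2.19-fold, 1.90 to 2.54) were past 2-fold in DKO on that scale, and none in the other libraries, where Fmod had 10.7 RPKM (Ogg1 KO) and 12.0 RPKM (Mutyh KO) and Ogn 8.88 and 10.3 RPKM. Dcn, decorin, was at 29.4, 32.8 and 32.6 RPKM in the knockout libraries and 31.8 RPKM in WT. In the same order, Omd had 30, 46 and 61 reads, against 23 in WT. Aspn, which was not compared, had 61, 43 and 25 reads, against 29 in WT.

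On log2(RPKM + 1), no basement membrane partner of 13 compared, no receptor of 8 and no collagen-degrading protease of 3 was at least 2-fold from WT in a knockout library. Of all genes compared, 0.546% to 0.743% were at least 2-fold higher and 0.0455% to 0.212% lower, so these counts do not set the lists apart. In reads, Nid2, a laminin-binding nidogen of basement membranes, was at 2.61-fold of WT (2.09 to 3.29) in Mutyh KO. The receptor gene Mrc2 and the protease gene Mmp2 were also past 2-fold in reads. Mrc2 had 402 reads in DKO against 194 in WT, and Mmp2 122 reads in Mutyh KO against 59 in WT. The receptor gene Itga11 was lower in Ogg1 KO, with 64 reads against 145 in WT. The partners had medians of 0.06, 0.20 and 0.21 in Ogg1 KO, Mutyh KO and DKO, the receptors 0.06, 0.21 and 0.21, and the proteases 0.45, 0.40 and 0.30. Among partners the most abundant were Sparc, a collagen-binding matrix protein (123, 105 and 102 RPKM, against 112 RPKM in WT), and Agrn, the proteoglycan agrin (30.9, 35.2 and 33.9 RPKM, against 35.7 RPKM in WT). Of the receptors, Ddr1, a collagen-activated tyrosine kinase, had 26.2, 29.4 and 27.1 RPKM, against 27.4 RPKM in WT, and Itgb1, the integrin beta1 chain, 14.0, 16.4 and 17.5 RPKM, against 12.8 RPKM in WT. Of the proteases, Mmp14 had 8.93, 7.88 and 7.45 RPKM, against 5.74 RPKM in WT, and Mmp2 1.82, 2.32 and 1.54 RPKM, against 1.06 RPKM in WT.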

How the data were processed

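Total RNA from hippocampus, 1 library for each of the 4 genotypes, was sequenced on an Illumina instrument, per the labels and the series' design text. The authors deposited, for each gene, its count of unique reads, its length in bases, its coverage in percent of that length and its RPKM, per the file headers. The deposited RPKM matched the count over length and header total, within a relative difference of 1e-06, for every gene listed in each library. The build was mm9, per the submitters' processing notes. No source used here gives the aligner, counting program, annotation or strand setting. Genes not listed in a library were taken as 0.

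From these values the ratio of reads per total was computed with an exact conditional 95% interval (Clopper-Pearson, SciPy 1.17.1), and the log2 ratio of RPKM after adding 1 RPKM, for genes with a mean of at least 1 RPKM. Intervals cover counting error only, and no p-value was computed. The code was tested on simulated data. Scaling by TMM (edgeR 4.0.16) and by size factors (DESeq2 1.42.0) was tried as an alternative, with other pseudocounts and filters and with totals without ribosomal RNA. Values were printed for each member with a mean of at least 1 RPKM. Lower members were to be named where a library had at least 20 reads and a ratio was at least 2-fold with an interval excluding 1. From the lists of enzymes, receptors, proteoglycans, basement membrane partners and proteases, genes past 2-fold against WT were named, or, with fewer than 2 such genes, the 2 most abundant. The members and lists were chosen with earlier results of these data known. Col2a1, Col6a5, Col6a6, Col7a1, Col9a1, Col10a1, Col13a1, Col22a1, Col28a1, Dcn, Nid2, Mrc2 and the genes described by coverage fall outside that rule and were chosen after their values were seen. Loxl4, Loxl2, Omd, Aspn and Itga11 were likewise named after their values were seen. Marker lists are given by sums, counts and medians, and Ttr, Igf2, Slc13a4, Dcn and Foxd1 were named from them after their values were seen. Promoter windows came from RefSeq (GRCm38.p6), and no coordinates of that build were joined to the counts.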

Additional observations from a re-analysis of the deposited data

Results flagged for a closer look

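Libraries labelled as lacking Ogg1 can be set against those with it on 2 backgrounds, with Mutyh (Ogg1 KO over WT) and without it (DKO over Mutyh KO). These pairs share no library and compare libraries rather than genotypes. The second pair also differs in Xist, with 29 reads in DKO against 10307 in Mutyh KO. For 5 collagen genes the ratios of reads per total of these pairs lay at least 2-fold from 1 in opposite directions. This rule was applied to the collagen genes only, so no share over all genes stands beside the count. Col8a1 was at 6.99 for Ogg1 KO over WT and 0.313 for DKO over Mutyh KO, and Col8a2 at 3.32 and 0.491. Col4a3 was at 4.35 and 0.242, Col4a4 at 4.61 and 0.294, and Col17a1 at 5.32 and 0.471. Each pair had to have at least 20 reads in 1 library, which Col4a4 (15 reads) and Col17a1 (7 reads) did not reach in WT. Their entry in the first pair rested on Ogg1 KO. With 1 library per genotype the difference between backgrounds was not tested. The summed choroid plexus markers ran the same way, at 2967 RPKM in Ogg1 KO against 267 RPKM in WT and at 1493 RPKM in DKO against 2922 RPKM in Mutyh KO, most of it Ttr. The median log2 ratio of the list was 2.38 for Ogg1 KO over WT and -0.99 for DKO over Mutyh KO. Their part in the result was not tested.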

How the results depend on the processing

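Counts of collagen genes past a fold depended on the pseudocount and the filter. With 0.1 RPKM added in place of 1 RPKM, 6 members rather than 3 were at least 2-fold above WT in Mutyh KO, 9 rather than 5 were at least 1.5-fold above WT in DKO (also 9 with 0.5 RPKM), 2 rather than 1 were at least 2-fold lower in DKO than in Mutyh KO, and 1 rather than 0 was at least 1.5-fold higher in DKO than in Mutyh KO. With a mean of at least 0.5 RPKM, or without a filter, 5 members were at least 2-fold above WT in Mutyh KO and 5 rather than 3 at least 1.5-fold lower in DKO than in Mutyh KO. Without a filter, 1 rather than 0 was at least 1.5-fold higher in DKO than in Ogg1 KO. Smaller pseudocounts widen ratios of low genes, and looser filters compare more genes, by construction. No gene ratio of at least 2-fold changed its sign under these alternatives, but none could have. A pseudocount or filter leaves the sign as it is, and the other totals were too close to the header totals to reverse such a ratio. Under TMM, DESeq2 size factors and totals without ribosomal RNA, the 45 counts, medians and sums and the 135 gene ratios stayed within their tolerance (1.5 times for a count, counting error for the rest). Of the 135 gene ratios, 10 moved beyond it with 0.1 RPKM added and 1 with 0.5 RPKM. No paired analysis was possible because each genotype has 1 library. Leaving out a replicate was likewise not possible. Depth limits the 16 members under 1 RPKM, whose ratios rest on as few as 1 read.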
